A study of Bos taurus with 10 samples.

Results

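Solute carriers, transport proteins with symbols of the form SLC, a number, A and a number, or SLCO and a number, were represented by 204 probe sets of 145 genes among the 24016 bovine probe sets tested, which name 9155 genes by a single symbol. The members were taken by symbol alone, and the SLC25 family of mitochondrial carriers was left out, as were 12 probe sets of 9 SLC35 genes whose symbols carry another letter than A. The rule did not follow the plasma membrane strictly. It also admitted 40 probe sets of 31 genes assigned, by gene or else by family, to intracellular membranes. A further 3 probe sets were of SLC4A1AP and SLC7A6OS, which are named after a carrier and are not carriers.

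Transcripts were measured in bovine oocytes on 10 Affymetrix 3′ expression arrays, 5 of immature oocytes and 5 of oocytes after in vitro maturation (IVM). Both groups came from cumulus-oocyte complexes of slaughtered cows, drawn from follicles 3 to 8 mm across, some of which served as the immature group, stripped of cumulus cells and frozen at 0 h. The IVM oocytes stayed inside their cumulus for 24 h at 39°C under 5% CO2, in TCM-199 medium to which epidermal growth factor (10 ng/ml) and 10% fetal calf serum were added, and were then stripped in the same way. Each array held a pool of oocytes from slaughterhouse ovaries, so no value belongs to a single oocyte or animal. Fewer molecules per oocyte, a smaller share of the amplified RNA and a shorter poly(A) tail cannot be told apart on these arrays. The study names tail length as a possible source of uneven amplification.

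Solute carriers move amino acids, sugars, ions, metals, vitamins and organic acids across membranes, mostly as facilitators or by coupling to a gradient of sodium or protons. A mammalian oocyte takes up part of its nutrients itself and receives another part, such as pyruvate and several amino acids, through gap junctions from the cumulus cells around it. Zinc is a special case, since oocytes are known to accumulate it during meiotic maturation.

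The values were on a log2 scale, so a difference of 1 is a doubling. Most of the carriers gave almost the same value on every array: 140 of the 204 probe sets spanned less than 0.01, and these probe sets carry no comparison in either direction. The remaining 64 probe sets, of 58 genes, varied. That share was 31.4% of the members and 39.4% of all probe sets. For 87 of the 145 genes no probe set varied, among them the glucose transporters SLC2A3 and SLC2A4, the glycine transporter SLC6A9, the taurine transporter SLC6A6, the large neutral amino acid transporter SLC7A5, the glutamine transporter SLC38A3, the zinc exporter SLC30A1 and the nucleoside transporter SLC29A1.

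In the comparison of IVM with immature oocytes, 10 of the 204 probe sets fell (4.90%) and 1 rose (0.490%) at an adjusted p under 0.0001 by limma. Over all probe sets the shares were 4.81% lower and 0.974% higher, so the carriers stood near the background in both directions. The transcripts that fell were those of 8 carriers, SLC6A4, SLC16A13, SLC7A9, SLC1A4, SLC2A8, SLC7A7, SLC46A1 and SLC9A3, and of SLC4A1AP. The transcript that rose was SLC35A2. With the replicate number, which stands for the day of collection in the study's methods, as a block in the fit, 0 probe sets of the whole array and so 0 members passed that threshold. With the block and only the varying probe sets, 9 members were lower and 3 higher, beside 930 and 172 of all 9460 that varied.

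At an adjusted p under 0.05, 20 members were lower and 30 higher, with 15.0% and 15.5% of all probe sets. Of these, 10 hardly varied and differed by no more than 4.58e-08, which has no practical size. Without these, 13 of all 204 members were lower (6.37%) and 27 higher (13.2%), beside 12.5% and 13.4% of all 24016 probe sets. Against varying probe sets alone, these were 13 and 27 of 64 members, beside 2997 and 3218 of 9460. The groups did not overlap for 12 lower and 22 higher members, beside 11.5% and 10.6% of all. At this looser threshold the lower share of the carriers was below the background on either base. The higher share was near the background over all probe sets and above it among varying ones. Neither gap was tested. The median difference over all 204 members was 0.00, as it was over all probe sets.

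**Figure D1:**
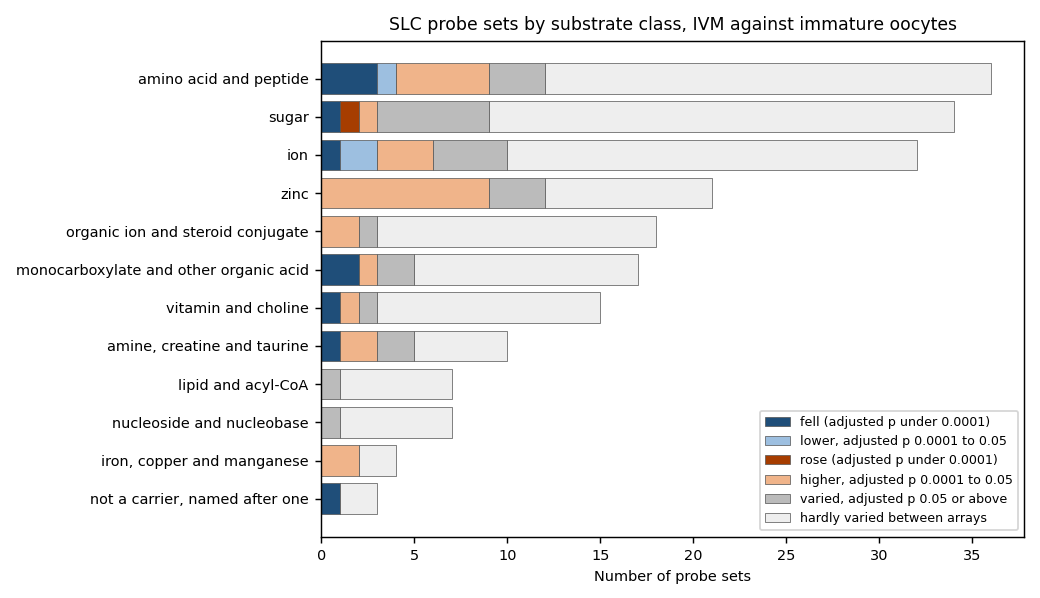
Number of solute carrier probe sets (horizontal axis) in each substrate class, split by outcome in IVM against immature oocytes. The 10 probe sets that fell are spread over 7 classes. Hardly varying probe sets number 140 of 204 over all bars and 9 of 21 in the zinc bar.

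How many members were lower or higher depended on how the arrays were scaled. Probe sets for control transcripts meant to be spiked into RNA before labelling (poly-A controls) averaged 7.02 ± 0.15 (SD, n = 5) in immature and 7.95 ± 0.20 (SD, n = 5) in IVM oocytes. The difference was 0.94 (p = 0.00794 by a two-sided exact permutation test, the lowest value the design can give). The study's methods do not say whether spike-in controls were added. The hybridization controls, meant to be added after labelling, differed by 0.90 (10.02 ± 0.73 and 10.92 ± 0.19, SD, n = 5, exact permutation p = 0.0556). They were split within the immature group: 9.38, 9.73 and 9.39 on replicates 1 to 3, and 10.85 and 10.75 on replicates 4 and 5. The IVM arrays read 10.75 to 11.22. Centred on the poly-A controls, the median of all probe sets moved by -0.94. At 0.0001, 160 members were then lower and 2 higher, beside 18661 and 165 of all 24016 probe sets. Of those 160, 140 were the hardly varying probe sets, which take on the shift of the controls and no difference of their own. Among the 64 varying members 20 were lower and 2 higher. Without that centring the array medians lay between 7.04 and 7.10, close to the immature mean of the poly-A controls. The part of this shift in the carrier differences was not tested.

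Amino acid and peptide carriers held 3 of the 10 probe sets that fell. Of their 36 probe sets 12 varied and 3 fell. At an adjusted p under 0.05 by limma, 4 of the 12 varying probe sets were lower and 5 higher. Over the whole array these counts were 2997 and 3218 of the 9460 varying probe sets.

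SLC7A9 encodes the b0,+AT light chain, which exchanges cystine and cationic amino acids. Its values were 9.62, 10.02, 9.44, 9.80 and 10.05 in immature oocytes and 6.32, 5.98, 5.77, 6.35 and 6.63 in IVM oocytes. The groups lay far apart, with a difference of -3.57 (SE 0.19, limma adjusted p = 3.22e-06), or 11.9-fold lower. SLC7A7, the y+LAT1 light chain for cationic and neutral amino acids, lay between 8.77 and 9.27 in immature and between 6.73 and 7.50 in IVM oocytes (difference -1.87, SE 0.17, adjusted p = 6.07e-05). These were the only SLC7 genes whose values varied, and both fell.

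Light chains of this family work in a pair with a heavy chain. SLC3A2 (4F2hc), the partner of SLC7A7, read 9.16, 8.79, 8.31, 8.58 and 9.10 in immature oocytes and 10.24, 9.75, 9.57, 9.50 and 10.64 in IVM oocytes. Every IVM array lay above every immature array, by 1.16 on average (SE 0.27, limma adjusted p = 0.0116), which did not pass 0.0001. SLC3A1 (rBAT), the partner of SLC7A9, hardly varied.

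The sodium-dependent exchangers of alanine, serine and cysteine also fell or were lower. SLC1A4 (ASCT1) averaged 9.24 ± 0.18 (SD, n = 5) in immature oocytes, where its highest array read 9.48, and read 7.19, 6.63, 7.04, 7.24 and 7.25 in IVM oocytes, a 4.51-fold difference (-2.17, SE 0.14, adjusted p = 9.48e-06), and its other probe set hardly varied. The related SLC1A5 (ASCT2), which carries glutamine, ran from 11.19 to 11.93 and from 10.65 to 11.22, so its groups overlapped (difference -0.67, SE 0.17, adjusted p = 0.0172).

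Among the amino acid carriers with higher values, SLC43A2 (LAT4), a facilitator of branched-chain amino acids, came closest to the threshold. Its immature values of 7.93 to 8.50 and IVM values of 9.72 to 10.82 did not overlap (difference 1.93, SE 0.21, limma adjusted p = 2.25e-04). SLC17A5 (sialin), which exports sialic acid from lysosomes, read 9.01 to 9.58 and 10.22 to 11.06 (1.41, SE 0.18, adjusted p = 5.49e-04). SLC38A5 (SNAT5) stayed within 6.51 to 6.85 in immature oocytes and ran from 7.58 to 10.10 in IVM oocytes (1.67, SE 0.47, adjusted p = 0.0269). The 10.10 of SLC38A5 came from IVM replicate 4, while the 4 other IVM arrays stopped at 8.40.

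SLC38A2 (SNAT2), a sodium-coupled carrier of small neutral amino acids, varied widely within both groups. It read 8.69, 6.25, 9.80, 10.58 and 9.12 in immature oocytes and 11.04, 11.62, 11.23, 12.83 and 9.47 in IVM oocytes. With an SD of 1.64 within the immature group the difference of 2.35 (SE 0.90, 95% interval 0.27 to 4.43) had an adjusted p of 0.0906 by limma.

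**Figure D2:**
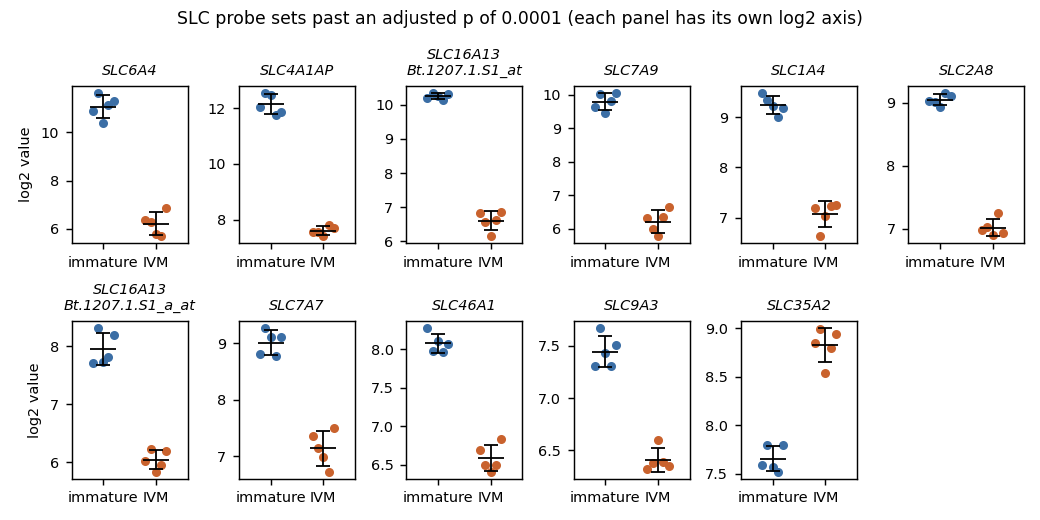
Log2 values of the 11 solute carrier probe sets past an adjusted p of 0.0001, each dot 1 array (5 immature, 5 IVM), with the group mean and SD as bars and a separate axis for each panel. In every panel the immature and the IVM dots are apart, and in the SLC35A2 panel alone the IVM dots are the upper ones.

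The largest fall of a carrier was that of SLC6A4, the serotonin transporter. It read 10.87, 11.64, 10.41, 11.12 and 11.31 in immature oocytes and 6.38, 6.28, 5.80, 5.69 and 6.88 in IVM oocytes. The groups were far apart, and the difference was -4.87 (SE 0.30, limma adjusted p = 6.90e-06), or 29.2-fold. No other amine or creatine carrier passed 0.0001. The GABA transporter SLC6A11 was higher without overlap (7.22 to 7.73 and 7.85 to 8.22, difference 0.57, SE 0.10, adjusted p = 0.00373). The vesicular monoamine transporter SLC18A2, which loads serotonin and other amines into vesicles, read 7.46 to 7.71 and 7.71 to 8.20 (0.40, SE 0.11, adjusted p = 0.0266). The 2 probe sets of the creatine transporter SLC6A8 gave opposite signs, -0.33 and 0.20, with adjusted p-values of 0.0974 and 0.182.

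SLC16A13 (MCT13), a member of the monocarboxylate transporter family, fell on 2 of its 3 probe sets, and the third hardly varied. The brighter probe set read 10.21, 10.35, 10.26, 10.14 and 10.32 in immature oocytes and 6.84, 6.58, 6.15, 6.62 and 6.85 in IVM oocytes (difference -3.65, SE 0.13, limma adjusted p = 4.23e-07). The dimmer one read 7.71 to 8.31 and 5.84 to 6.23 (-1.91, SE 0.15, adjusted p = 2.63e-05). The immature values of the brighter probe set were among the tightest of the members that fell, with an SD of 0.09.

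The carriers of lactate and pyruvate best known from cumulus cells and oocytes did not show such a fall. SLC16A1 (MCT1) read 8.95 to 8.97 in immature and 8.96 to 8.99 in IVM oocytes, a difference of 0.01 (SE 0.01, limma adjusted p = 0.206). Its 10 values spanned 0.0439, little more than the 0.01 that counts as varying. This nearly flat probe set therefore says little about SLC16A1 in either direction. SLC16A3 (MCT4), a lactate exporter, read 8.63, 7.27, 9.48, 9.68 and 8.26 in immature oocytes and 8.78, 8.21, 8.95, 10.10 and 7.85 in IVM oocytes. Its groups covered nearly the same range (difference 0.11, SE 0.58, 95% interval -1.22 to 1.44, limma adjusted p = 0.989), and an interval of this width leaves room for more than a doubling either way. The dicarboxylate carrier SLC13A3 was higher by 0.38 (SE 0.11, adjusted p = 0.0295).

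Of 34 probe sets for sugar carriers, 9 varied, 1 fell and 1 rose. SLC2A8 (GLUT8), a hexose transporter found mainly on intracellular membranes, fell from 9.03, 9.01, 8.94, 9.16 and 9.11 to 6.98, 7.03, 6.90, 7.25 and 6.93. Both groups were narrow, with SDs of 0.08 and 0.14, and the difference of -2.03 (SE 0.07, limma adjusted p = 3.73e-07) was 4.09-fold. SLC2A1 (GLUT1), the basal glucose transporter, read 8.69, 8.70, 8.74, 9.15 and 8.56 in immature oocytes and 8.83, 8.48, 8.57, 9.84 and 8.18 in IVM oocytes. On 4 of the 5 IVM arrays SLC2A1 lay within or below the immature range, and the fifth, replicate 4, lay above it. The difference was 0.01 (SE 0.30, 95% interval -0.68 to 0.70). The sodium-glucose cotransporter SLC5A1 differed by 0.05 (SE 0.15, 95% interval -0.29 to 0.40).

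The transcript that rose, SLC35A2, encodes the Golgi carrier of UDP-galactose, so no carrier assigned to the cell surface rose at 0.0001. It read 7.59, 7.79, 7.57, 7.52 and 7.79 in immature oocytes and 8.85, 8.99, 8.54, 8.80 and 8.94 in IVM oocytes (difference 1.17, SE 0.10, limma adjusted p = 4.19e-05). A second SLC35A2 probe set hardly varied. SLC35A1, the Golgi carrier of CMP-sialic acid, was also higher on every IVM array (10.68 to 11.09 and 11.43 to 12.12, difference 0.89, SE 0.15, adjusted p = 0.00218), and SLC35A3, the carrier of UDP-N-acetylglucosamine, overlapped (0.59, SE 0.20, adjusted p = 0.0542). Of the 17 varying probe sets of carriers assigned to intracellular membranes, 16 had a positive difference, 10 of them at an adjusted p under 0.05. SLC2A8 was the one with a negative difference. The 17 include SLC30 and SLC39 zinc carriers, which are counted again in the zinc class below. Of the 46 varying probe sets of carriers assigned to the surface, 29 were positive and 17 negative. Over the whole array 5435 of 9460 varying probe sets were positive and 3218 were higher at 0.05. The difference between intracellular and surface carriers was not tested. Under poly-A centring 4 of the 17 and 11 of the 46 were positive. Centred on the poly-A controls, SLC35A1 was at -0.05, and SLC35A2 was at 0.24 and no longer passed 0.0001.

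**Figure D3:**
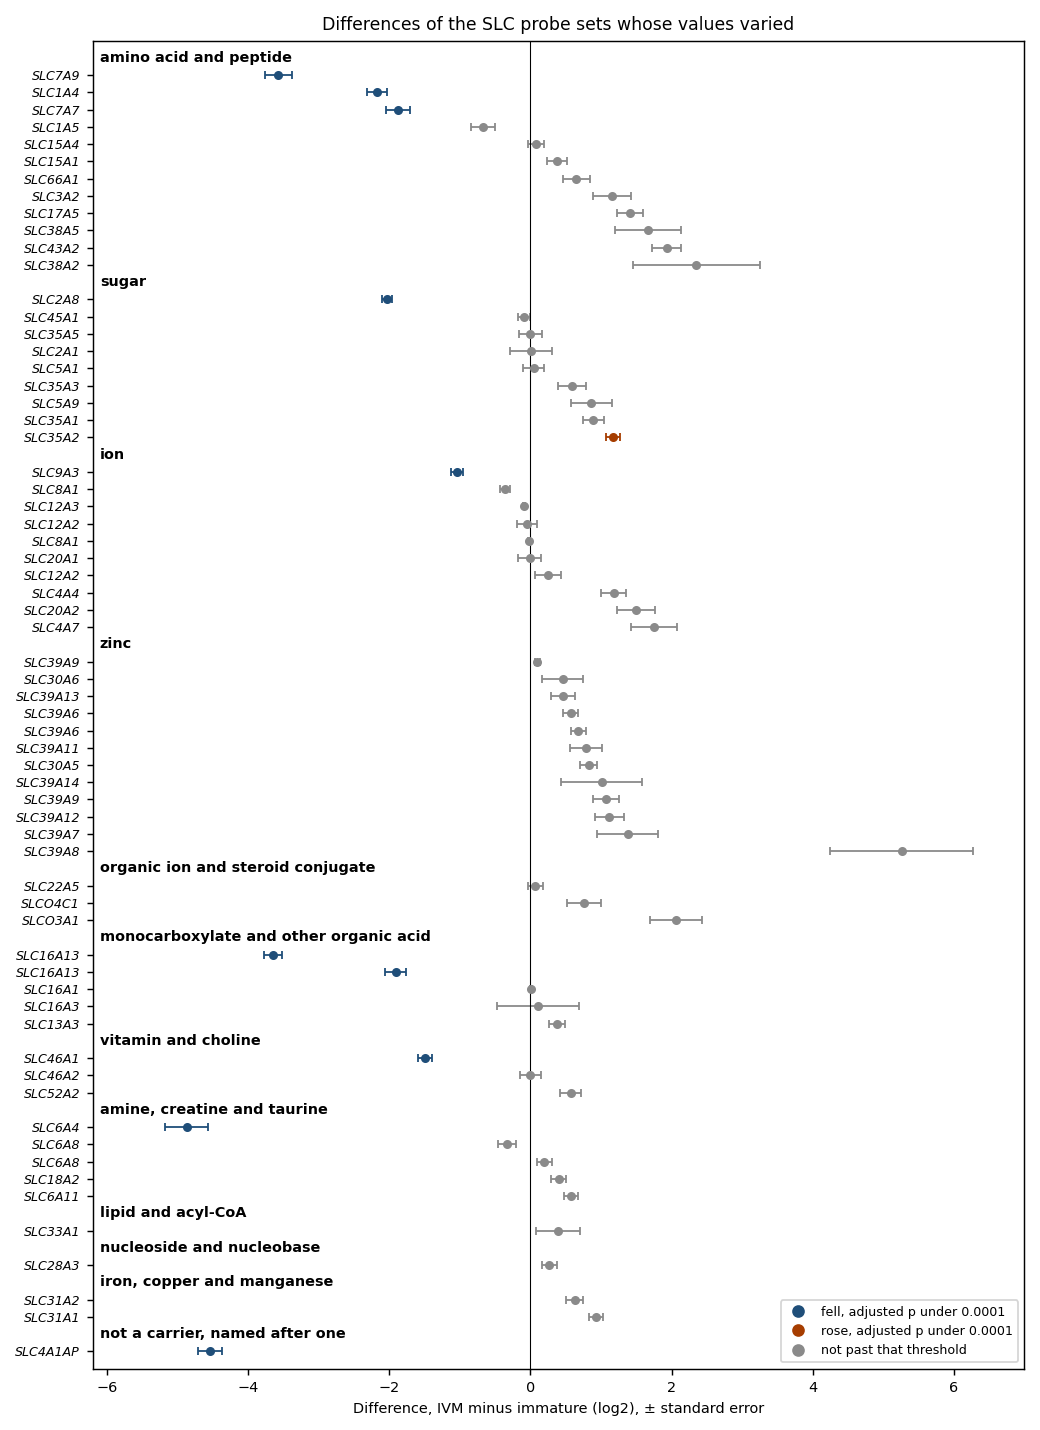
Difference of each of the 64 varying probe sets (IVM minus immature, log2, horizontal axis) with its standard error, sorted within substrate class. The points run from -4.87 (SLC6A4) to 5.26 (SLC39A8), and the zinc class has all 12 of its points on the positive side, which under poly-A centring held for 5 of the 12.

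Zinc carriers held a single sign on the deposited scale. Of 21 probe sets of 17 genes 12 varied, and all 12 had a positive difference. None of them passed 0.0001, 9 passed 0.05, and for 7 the groups did not overlap. Of the 9460 varying probe sets of the whole array, 5435 were positive, 3218 were higher at 0.05 and 2551 were higher without overlap. The median difference over all 21 was 0.46, against 0.00 over all probe sets. Centred on the poly-A controls, 5 of the 12 were positive, 1 was higher and 3 were lower at 0.05. Immature replicates 4 and 5 alone against IVM gave 12 positive and 2 higher at 0.05. Over all probe sets 1235 were then higher, against 3732 with every array. Members of the SLC39 (ZIP) family bring zinc into the cytosol, and members of the SLC30 (ZnT) family take it out or into organelles.

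SLC39A8 (ZIP8), an importer of zinc and manganese, had the largest difference of all carriers. It read 4.94, 5.97, 4.86, 8.98 and 5.15 in immature oocytes and 10.09, 12.00, 11.32, 13.22 and 9.55 in IVM oocytes. The lowest IVM array lay above the highest immature array, and 4 of the 5 immature arrays were below 6. The difference was 5.26 (SE 1.01, 95% interval 2.93 to 7.58, limma adjusted p = 0.00469), and the spread of 1.73 (SD) among immature arrays came from replicate 4.

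Smaller differences were seen for the other surface importers. SLC39A12 (ZIP12) read 9.62 to 10.19 in immature oocytes and 10.40 to 11.36 in IVM oocytes (1.12, SE 0.20, adjusted p = 0.00288). The 2 probe sets of SLC39A6 (ZIP6), an importer known from oocytes, were both apart between groups, at 0.68 (SE 0.11, adjusted p = 0.00163) and 0.57 (SE 0.11, adjusted p = 0.00559) by limma. SLC39A14 (ZIP14), which also carries iron, overlapped (7.14 to 9.26 and 8.02 to 10.82, difference 1.01, SE 0.57, adjusted p = 0.246).

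Zinc carriers of the secretory pathway had the same sign. SLC39A7 (ZIP7), which releases zinc from the endoplasmic reticulum and Golgi, read 7.55, 7.27, 8.01, 8.10 and 8.00 in immature oocytes and 8.89, 9.20, 8.68, 10.69 and 8.37 in IVM oocytes (1.38, SE 0.43, limma adjusted p = 0.0426). SLC39A9 (ZIP9) had 2 probe sets, at 1.07 (SE 0.18, adjusted p = 0.00238) and 0.10 (SE 0.03, adjusted p = 0.0342), which agreed in sign and not in size. SLC30A5 (ZnT5), which loads zinc into the early secretory pathway, was higher without overlap (7.70 to 8.07 and 8.52 to 9.09, difference 0.83, SE 0.12, adjusted p = 9.17e-04), and its partner SLC30A6 overlapped (0.46, SE 0.29, adjusted p = 0.293).

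**Figure D4:**
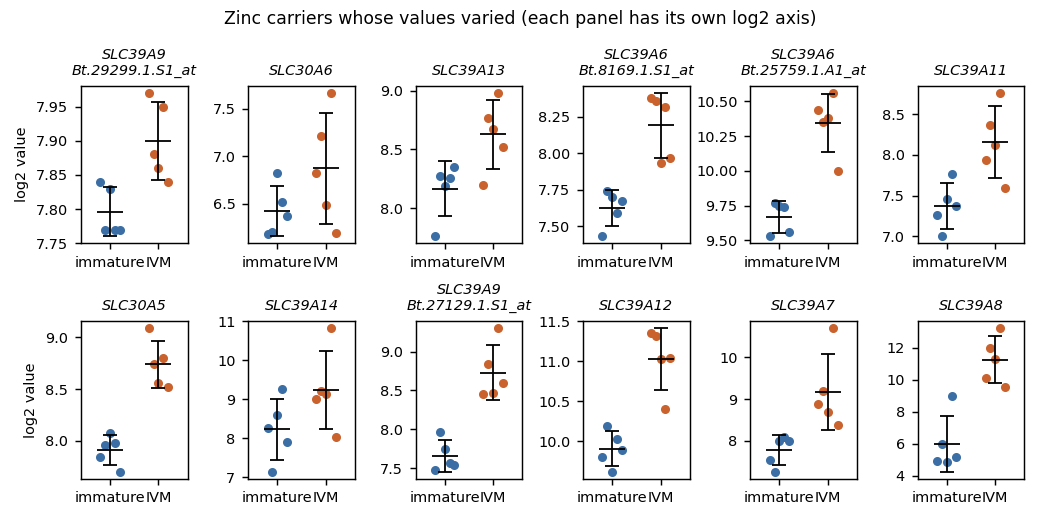
Log2 values of the 12 varying zinc carrier probe sets, each dot 1 array (5 immature, 5 IVM), with the group mean and SD as bars and a separate axis for each panel. The IVM mean is the higher of the pair in each panel as deposited, and the SLC39A8 panel shows the 1 immature array at 8.98; centred on the poly-A controls, 5 of the 12 differences stayed positive.

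Both copper carriers had positive differences on the deposited scale. SLC31A1 (CTR1), the high-affinity copper importer, read 8.83, 8.91, 8.92, 9.13 and 8.77 in immature oocytes and 9.90, 9.97, 9.63, 10.02 and 9.71 in IVM oocytes (difference 0.93, SE 0.10, limma adjusted p = 1.50e-04). SLC31A2 (CTR2) read 9.28 to 9.42 and 9.64 to 10.24 (0.63, SE 0.12, adjusted p = 0.00354). Neither passed 0.0001 and both had non-overlapping groups, and under poly-A centring both differences turned negative (-0.0027 and -0.30). The iron and manganese carriers SLC11A1 and SLC11A2 hardly varied.

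Ion carriers held 32 probe sets, of which 10 varied and 1 fell. SLC9A3 (NHE3), a sodium-proton exchanger of apical membranes, fell from 7.31, 7.67, 7.43, 7.31 and 7.51 to 6.32, 6.38, 6.60, 6.39 and 6.35 (-1.04, SE 0.08, limma adjusted p = 3.33e-05), and its other 2 probe sets hardly varied. The sodium-bicarbonate cotransporters, which regulate pH, had the opposite sign and did not pass 0.0001. SLC4A4 (NBCe1) read 7.68 to 8.12 and 8.58 to 9.50 (1.18, SE 0.18, adjusted p = 0.00135), and SLC4A7 (NBCn1) read 6.35 to 7.10 and 7.75 to 9.38 (1.75, SE 0.33, adjusted p = 0.00452).

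Of the sodium-phosphate cotransporters, SLC20A2 was higher on every IVM array (6.57 to 7.43 and 7.95 to 9.21, difference 1.50, SE 0.27, limma adjusted p = 0.00324), while SLC20A1 differed by -0.01 (SE 0.16, 95% interval -0.39 to 0.36). The sodium-calcium exchanger SLC8A1 was lower without overlap on 1 probe set (-0.36, SE 0.07, adjusted p = 0.00641) and differed by -0.02 on another.

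SLC46A1 (PCFT), the proton-coupled folate transporter, was the vitamin carrier that fell. It read 8.27, 7.97, 8.10, 7.96 and 8.07 in immature oocytes and 6.69, 6.50, 6.41, 6.50 and 6.83 in IVM oocytes (-1.49, SE 0.10, limma adjusted p = 8.95e-06). Its other 2 probe sets hardly varied, and so did the reduced folate carrier SLC19A1. The riboflavin transporter SLC52A2 was higher without overlap (9.07 to 9.22 and 9.25 to 10.05, difference 0.57, SE 0.15, adjusted p = 0.0233).

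Organic ion, lipid and nucleoside carriers held few varying members, 3 of 18, 1 of 7 and 1 of 7 probe sets, and none passed 0.0001. SLCO3A1, an organic anion transporter that carries prostaglandins, read 6.97, 8.39, 6.86, 8.10 and 8.18 in immature oocytes and 9.19, 10.12, 9.51, 9.99 and 10.00 in IVM oocytes. The groups were apart (2.06, SE 0.37, limma adjusted p = 0.00321), and with the replicate block among varying probe sets SLCO3A1 and SLC39A8 passed 0.0001. The concentrative nucleoside transporter SLC28A3 differed by 0.27 (SE 0.11, adjusted p = 0.0942), and SLC33A1, the acetyl-CoA carrier of the endoplasmic reticulum, by 0.39 (SE 0.31, adjusted p = 0.427).

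SLC4A1AP encodes an adaptor protein named after the anion exchanger SLC4A1 and transports nothing itself. It fell from 12.03, 12.55, 12.49, 11.75 and 11.88 to 7.55, 7.54, 7.40, 7.81 and 7.71. This 23.2-fold difference (-4.54, SE 0.17, limma adjusted p = 5.56e-07) is counted among the 10 that fell.

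The 11 calls were not equally firm. Those of the brighter SLC16A13 probe set, SLC1A4, SLC2A8, SLC46A1, SLC4A1AP, SLC6A4 and SLC7A9 held when any 1 of the 10 arrays was left out. The call of SLC35A2 ended on leaving out 9 of the 10 arrays in turn (IVM replicate 3 excepted), that of SLC7A7 on 9 (IVM replicate 4 excepted), that of SLC9A3 on 8 (immature replicate 2 and IVM replicate 3 excepted) and that of the dimmer SLC16A13 probe set on 7 (immature replicates 1, 2 and 3 excepted), with adjusted p-values by limma of up to 2.64e-04, 3.75e-04, 2.19e-04 and 1.65e-04. When both arrays of replicate 4 were left out, SLC16A13, SLC2A8 and SLC4A1AP kept their calls. Over all probe sets 683 were then lower and 105 higher, against 1155 and 234 with every array.

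Replicate 4 stood apart in the IVM group. The correlation between IVM arrays was 0.890 at the lowest and 0.962 without that array. It gave the highest IVM value for 22 and the lowest for 22 of the 64 varying members (34.4% each), beside 37.1% and 37.4% of all varying probe sets. Among the 12 varying zinc probe sets it was the highest for 8 and the lowest for 1, SLC39A12. Without IVM replicate 4 all 12 zinc differences stayed positive and 8 passed 0.05, and without both arrays of replicate 4 these counts were also 12 and 8.

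Transcripts used as markers of cumulus and granulosa cells gave varying signal in the pools and differed in both directions. Per the study's methods, only oocytes seen to be free of cumulus were pooled. Which cells made these transcripts was not tested. Of 17 such marker genes on the array, 12 had varying probe sets, and the mean over those 18 probe sets was 6.86 to 8.50 on immature and 8.44 to 10.61 on IVM arrays. It was highest in each group on replicate 4. Of the 18 probe sets 12 had positive and 6 negative differences, with 10 higher and 1 lower at 0.05. TNFAIP6, a hyaluronan matrix gene of expanding cumulus, rose on 1 probe set from 3.27 to 5.95 in immature oocytes to 12.27 to 17.13 in IVM oocytes (10.9, SE 0.998, limma adjusted p = 7.63e-05). CYP19A1, the aromatase of granulosa cells, was lower (-1.38, SE 0.284, adjusted p = 0.00656), and FST and INHA overlapped at -1.79 and -0.911. General somatic markers had means of 6.65 to 7.96 and 9.06 to 11.57, oocyte markers had means of 12.58 to 13.10 and 10.10 to 11.55, and 0 of 11 probe sets of blood cell markers varied. These means cover members of both signs: 12 of 13 varying somatic probe sets were positive and VIM was at -2.51 (adjusted p = 0.128), while 6 of 8 oocyte probe sets were negative and BMP15 and KPNA7 were at 0.194 (adjusted p = 0.717) and 0.375 (adjusted p = 0.00575) by limma. The part of cumulus RNA in the carrier values was not tested.

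Some carriers, picked here from their values, had their extremes on the same arrays as these markers. Immature replicate 4 was the highest immature array for 25% of the 64 varying members, beside 24.5% of all varying probe sets. For IVM replicate 4 these shares were 34.4% and 37.1%. Whether carriers follow the markers more than other probe sets do was not tested. SLC38A2, SLC16A3 and SLC39A14 were lowest on immature replicate 2 (6.25, 7.27 and 7.14) and highest on immature replicate 4 (10.58, 9.68 and 9.26), and the cumulus marker mean was likewise lowest on immature replicate 2 and highest on replicate 4. In the IVM group these 3 carriers and SLC39A8 were highest on replicate 4 and lowest on replicate 5, as the marker mean was. Of the carriers that fell, SLC2A8 was highest and SLC6A4 and SLC7A7 were lowest on IVM replicate 4.

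**Figure D5:**
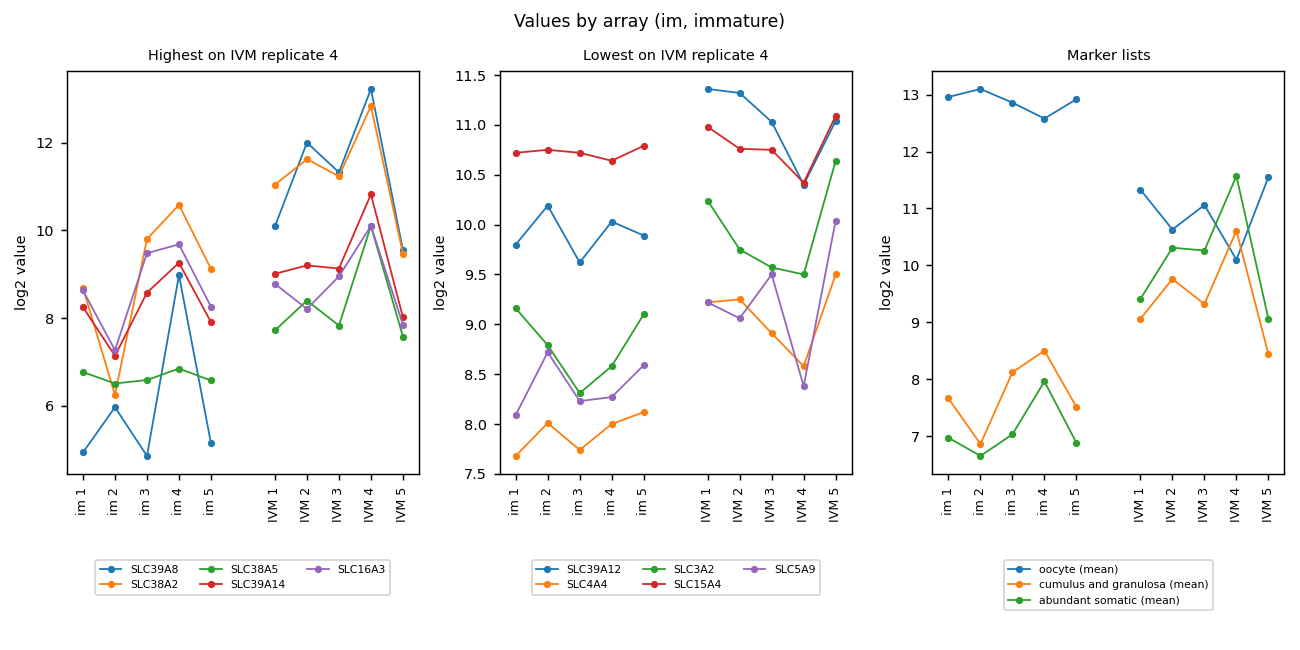
Log2 values by array (5 immature, then 5 IVM) of 5 carriers highest on IVM replicate 4, 5 carriers lowest on it, and the means of 3 marker lists. SLC39A8, SLC38A2 and the cumulus and somatic marker means peak on replicate 4, where the oocyte marker mean is lowest; the carriers were picked for this display from their values.

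Other transport genes were counted in the same fit. Of 19 probe sets of ATP-binding cassette (ABC) transporters, which pump their substrates with ATP, 2 fell and 0 rose, beside 4.81% and 0.974% of all probe sets. Among the 7 that varied, 6 had negative differences and 4 were lower at 0.05, beside 4025 and 2997 of the 9460 varying probe sets of the whole array. The 4 included ABCF1 (-2.59, SE 0.284, limma adjusted p = 2.12e-04), a family member that acts in translation and not in transport. ABCG2, an exporter of drugs and porphyrins, read 10.25 to 10.62 in immature and 6.89 to 7.23 in IVM oocytes (-3.39, SE 0.09, limma adjusted p = 9.37e-08), and ABCG8, a half-transporter of sterols, read 8.47 to 8.89 and 5.94 to 6.40 (-2.49, SE 0.119, adjusted p = 1.86e-06).

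None of the 12 probe sets of the sodium pump, which maintains the sodium gradient that many carriers use, passed 0.0001. Nor did any of the 9 of aquaporins, the 16 of carrier partners and regulators or the 12 of SLC35 members outside the symbol rule. In that order only 3, 1, 6 and 7 of these probe sets varied, and the others carry no comparison. The shares over all probe sets were 4.81% lower and 0.974% higher. Closest among the pump genes was its regulatory subunit FXYD6 (9.66 to 10.11 and 8.27 to 8.92, difference -1.33, SE 0.143, limma adjusted p = 1.95e-04). SGK1, a kinase that raises the surface level of several carriers, read 5.59 to 5.79 in immature oocytes and 7.84 to 10.59 in IVM oocytes (3.29, SE 0.458, adjusted p = 8.47e-04), again with its highest value on IVM replicate 4. A second SGK1 probe set differed by less, 1.4 (SE 0.413, adjusted p = 0.0337). SLC35E3 read 9.71 to 11.02 and 7.46 to 8.64 (-2.54, SE 0.306, adjusted p = 3.71e-04).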

How the data were processed

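Per the study's methods, the authors scanned Affymetrix Bovine Genome arrays after 2-cycle amplification of 100 ng RNA, normalized them by quantiles and summarised probes with FARMS. The deposited log2 values of 10 arrays were used as given. Versions of these steps and the build behind the probe sets are not given in the sources used here. FARMS returns nearly one value for probe sets it finds uninformative, so these cannot show a difference. Read depth does not apply; 5 arrays a group limit the precision.

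Probe sets were named through the platform annotation, updated by gene identifier: 13292 had 1 gene, 86 several and 10638 none here. Members matched the symbol rule with either set of symbols. Groups and replicate numbers came from the sample titles, and 0 columns were left unused. limma 3.58.1 (R 4.3.3; lmFit, eBayes) compared IVM with immature arrays over 24016 probe sets, without 112 control probe sets, with Benjamini-Hochberg adjustment over all. It replaces the SAM test of the methods at the same 0.0001 threshold. Python 3.11.15 with pandas 2.3.3 made the counts. "Rose" and "fell" mean an adjusted p under 0.0001. "Varied" means that the 10 values span at least 0.01.

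Named genes were all members past 0.0001, up to 2 largest in each direction per substrate class among varying probe sets, and a preset list of carriers known from oocytes and cumulus cells, of which some, among them SLC16A7 and SLC39A10, were not analysed here. SLC3A1, SLC4A4, SLC5A1, SLC11A1, SLC11A2, SLC17A5, SLC19A1, SLC20A1, SLC30A5, SLC30A6, SLC35A3, SLC38A5, SLC39A9, SLC39A12, SLC39A14 and genes outside the carriers were named after their values were seen. Members, classes and lists were chosen with earlier results of these data known. Replicate pools were days of collection in the methods; same-numbered arrays deviated together with correlations of 0.149, -0.343, 0.0818, 0.676 and 0.352, so not all numbers behaved as pairs. On simulated data with 24016 probe sets, 37 of 100 differences of 2 and 8 of 100 differences of 1 passed 0.0001, with 0 false calls. At 0.05, 89 and 56 passed, with 3 false calls. No other probe sets were changed, while the real arrays had 1155 lower at 0.0001 alone. The adjustment depends on how many differ, so these shares are not those of the main comparison.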

Additional observations from a re-analysis of the deposited data

Results flagged for a closer look

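In 3 of 78 groups of 5 arrays tested, taken over the carriers named, 1 array stood apart by Dixon's ratio of its gap to the group's range (critical value 0.71); chance flags about 1 in 20. SLC39A8 read 8.98 on immature replicate 4 and 4.86 to 5.97 on the other immature arrays, a ratio of 0.731. SLC33A1 read 8.06 on immature replicate 3 and 6.81 to 7.04 on the others, a ratio of 0.819. SLC9A3, which fell, read 6.60 on IVM replicate 3 and 6.32 to 6.39 on the others, a ratio of 0.757.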

How the results depend on the processing

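Main counts of members at 0.0001 were 10 lower and 1 higher, beside 1155 and 234 of all probe sets. At 0.05 they were 20 lower and 30 higher, beside 3602 and 3732. With the replicate block they were 0 and 0 at 0.0001, as over all probe sets, and 19 and 26 at 0.05, beside 3124 and 3021. With the block over varying probe sets they were 9 and 3, beside 930 and 172 of 9460, and 12 lower at 0.05, beside 3118. Immature replicates 4 and 5 alone against IVM gave 0 and 0, beside 4 and 0 of all probe sets. At 0.05 that setting gave 12 and 9, beside 2177 and 1235. Poly-A centring gave 160 and 2 (20 and 2 among varying members), beside 18661 and 165 of all probe sets. At 0.05 it gave 175 and 5, beside 20427 and 807. Leaving out both arrays of replicate 4, an alternative chosen after seeing the data, gave 3 and 0, beside 683 and 105. Higher counts at 0.0001 were 4 over varying probe sets, 3 without dim probe sets, 3 with median centring and 3 with quantile normalization. Over all probe sets in each fit these were 685, 393, 382 and 396. Lower counts at 0.05 were 13, 9, 13 and 13, beside 3131, 2916, 2957 and 2859. The span rule added after seeing the data gave 13 lower at 0.05, beside 2997. Leaving out 1 array gave 7 to 9 lower and 0 to 1 higher at 0.0001 and 19 to 31 higher at 0.05. Over all probe sets these counts ran from 703 to 1097, 77 to 318 and 3004 to 4147. The trend and robust variance left 11 calls, all shared with the main 11.

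Poly-A centring turned SLC13A3 (-0.56), SLC16A1 (-0.92), SLC16A3 (-0.82), SLC18A2 (-0.54), SLC28A3 (-0.66), SLC2A1 (-0.93), SLC31A1 (-0.0027), SLC31A2 (-0.30), SLC33A1 (-0.55), SLC35A1 (-0.05), SLC39A6 (-0.26 and -0.37), SLC52A2 (-0.36), SLC6A11 (-0.37) and SLCO4C1 (-0.18) negative; by its construction it subtracts the shift of the controls. Differences near 0 also turned: SLC16A3 was -0.19 and SLC2A1 -0.08 with immature replicates 4 and 5 alone, SLC2A1 was -0.16 and SLC46A2 0.07 without replicate 4, SLC45A1 was 0.01 with quantile normalization, and SLC46A2 was 0.01 with median centring and 0.01 with quantile normalization. Leaving out 1 array moved SLC16A3 from -0.24 to 0.37, SLC2A1 from -0.25 to 0.16 and SLC46A2 from -0.09 to 0.06. No cause was tested.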

Other observations

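Carrier values, like those of all varying probe sets, spread more widely between IVM pools than between immature pools. The median SD over the 64 varying members was 0.21 in immature and 0.28 in IVM oocytes, and the IVM SD was the larger one for 51 of the 64, beside 0.19, 0.31 and 7354 of 9460 over all varying probe sets. SLC38A2 went the other way, with an SD of 1.64 in immature and 1.21 in IVM oocytes, as did SLC39A8 with 1.73 and 1.47 and SLC16A3 with 0.98 and 0.86. Among the carriers with a wider IVM spread, SLC38A5 had SDs of 0.14 and 1.04 and SLC39A7 of 0.36 and 0.90.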
